A study of Mus musculus with 24 samples.

Results

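Microvessels of the ipsilateral hemisphere 24 h after ischemic stroke were compared with those of sham-operated mice, in 6 of the 24 RNA libraries of the series. The libraries were chosen by their labels alone and comprised 3 replicates labelled stroke, 1 day, ipsilateral and 3 replicates labelled sham, 1 day, ipsilateral. All mice were male C57BL/6J of 10 to 12 weeks without a genetic change. Stroke was a transient middle cerebral artery occlusion (tMCAO), in which a filament closed the vessel for 60 min before reperfusion, and in sham mice the filament was retracted at once. Both groups had the same anesthesia with isoflurane, carotid ligation and analgesia with buprenorphine. A library was a pool of 3 hemispheres from different mice, and each group rested on 9 animals. Hemispheres were perfused and taken whole, without meninges, cerebellum, brain stem and olfactory lobes, so that infarct, its border and intact tissue were mixed. The study set aside libraries it judged to be outliers before 3 per group were analysed. The contralateral libraries of the same time point, also 3 per surgery, were used to ask whether the effects differed between the hemispheres.

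Brain microvessels are tubes of endothelial cells sealed by tight junctions, wrapped in a basement membrane shared with pericytes and covered by astrocyte endfeet, and together these layers form the blood-brain barrier. Endothelial transporters feed the brain and expel foreign compounds, and Wnt/β-catenin signalling is known to maintain this specialised state. After ischemia and reperfusion, microvessels are known for leukocyte adhesion, for the action of matrix proteinases on the basement membrane and for leakage.

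The values are normalized counts, which are reads per gene scaled by 1 factor for each library and given as whole numbers, and they can be compared for 1 gene between libraries but not between genes of different length. The 6 libraries held 15950068 to 17240753 normalized counts, or, with the scaling undone as estimated from the spacing of low values, 13692148 to 16884214 reads. Correlations of log2 values were 0.983 to 0.986 within the sham group, 0.973 to 0.982 within the stroke group and 0.936 to 0.970 between them. Endothelial markers were high in all 6 libraries. Pecam1 (CD31) had 28195 to 37350 normalized counts after tMCAO and 23168 to 30198 after sham surgery, and the tight junction gene Cldn5 had 42176 to 48060 and 43185 to 50190. Other cell types were present too, among them the choroid plexus gene Ttr, which ranged from 4839 to 70672 normalized counts within the sham group alone. Sham replicate 1 stood apart by low levels of blood genes (1324 normalized counts summed over 13 erythrocyte and platelet genes, against 12966 and 11086 in the other sham replicates). Stroke replicate 3 stood apart by the mildest changes, with a median log2 difference from the sham mean of 0.79 over the genes called higher, against 1.02 and 1.01 in the other stroke replicates. Values are given in the order of replicates 1, 2 and 3, first after tMCAO and then after sham surgery, and a number alone in brackets after them is the log2 fold change.

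In all, 1603 of the 15982 tested genes (10.0%) were higher and 1316 (8.23%) lower in the stroke group, by limma's test, where a call required a Benjamini-Hochberg adjusted p under 0.05 and a change of more than 1.5 times. P-values measure the spread among pooled libraries, not among single animals. The median log2 fold change was 0.94 among the higher and -0.99 among the lower genes, and the most extreme changes were upward. A log2 fold change above 2 was reached by 210 of the higher genes and one below -2 by 27 of the lower genes, and 25 higher genes but 0 lower genes passed 4 in size. All 3 stroke libraries lay above all 3 sham libraries in 3990 genes (25.0%) and below them in 3848 (24.1%). Genes called higher took 15.0%, 15.5% and 13% of all counts in the stroke libraries and 7.23% to 8.07% in the sham libraries, while genes called lower took 6.35%, 5.86% and 8.03% against 12% to 13%. Of the higher genes, 741 were highest in stroke replicate 1, 708 in replicate 2 and 154 in replicate 3.

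These counts depended on single libraries, on the scaling and on transcript length. Without sham replicate 1 the count of lower genes was 833 and without stroke replicate 2 it was 842, and 1473 of the 2919 called genes kept their call whichever of the 6 libraries was left out. After the median of each library was set equal, 1330 genes were higher and 1707 lower, so that the share of higher genes among the calls went from 54.9% to 43.8%. The effect also ran with transcript length, since the median log2 fold change was 0.24 among the 25% of genes with the shortest transcripts and -0.24 among the 25% with the longest. With a correction of each library for length and GC content, chosen after the data were seen, 1328 genes were higher and 1068 lower. Where a named gene lost its call, brackets after it give the libraries whose omission ended the call (sham 1 stands for sham replicate 1) or the length correction. For each list, the members with the largest called increase and decrease were named by rule, and further members were chosen after their values were seen.

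Il11 (chr7:4772373-4782857, mm10), a cytokine of the interleukin 6 family, had the largest increase among called genes without overlap of the groups and with a mean of at least 100 normalized counts, namely 3160, 3280 and 1977 against 9, 30 and 7 normalized counts (log2 fold change 7.66 ± 0.59, adjusted p = 7.50e-08, where ± is the standard error). Mmp3 (chr9:7445822-7455975), the metalloproteinase stromelysin-1, had 1892, 1996 and 1329 against 2, 7 and 25 normalized counts (log2 fold change 7.65 ± 1.01, adjusted p = 2.14e-05). Arg1 (chr10:24915221-24927484), an enzyme that splits arginine, had 329, 349 and 189 against 0, 0 and 2 normalized counts (log2 fold change 7.60 ± 0.70, adjusted p = 5.15e-07). Each of these genes was at 30 normalized counts or fewer in every sham library, and for Arg1 the size of the fold change depends on the pseudocount of 1. The cytokines Lif (755, 559 and 324 against 0, 7 and 16 normalized counts, log2 fold change 6.65 ± 1.04, adjusted p = 1.13e-04) and Il6 (780, 1070 and 468 against 2, 8 and 31 normalized counts, log2 fold change 6.26 ± 1.09, adjusted p = 3.22e-04) followed, both of the same family as Il11. Tnc, which encodes the matrix protein tenascin-C, had 1465, 2351 and 879 against 15, 18 and 37 normalized counts (log2 fold change 6.0 ± 0.46, adjusted p = 7.50e-08). The remaining 4 of the 10 largest increases were Csf3, the granulocyte colony-stimulating factor (1086, 619 and 439 against 4, 10 and 66 normalized counts, log2 fold change 5.43), Saa3, a serum amyloid A (843, 847 and 648 against 8, 24 and 25 normalized counts, 5.43), Fosl1, a partner in the AP-1 transcription factor (841, 677 and 258 against 23, 5 and 46 normalized counts, 4.80), and Il1b, the cytokine interleukin 1 beta (597, 185 and 578 against 3, 41 and 22 normalized counts, 4.67). In 9 of these 10 genes replicate 3 was the lowest of the stroke libraries, and in Il1b it was replicate 2. Calls were lost for Csf3 (sham 1, stroke 1) and Fosl1 (sham 2, stroke 1 or 2).

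**Figure D1:**
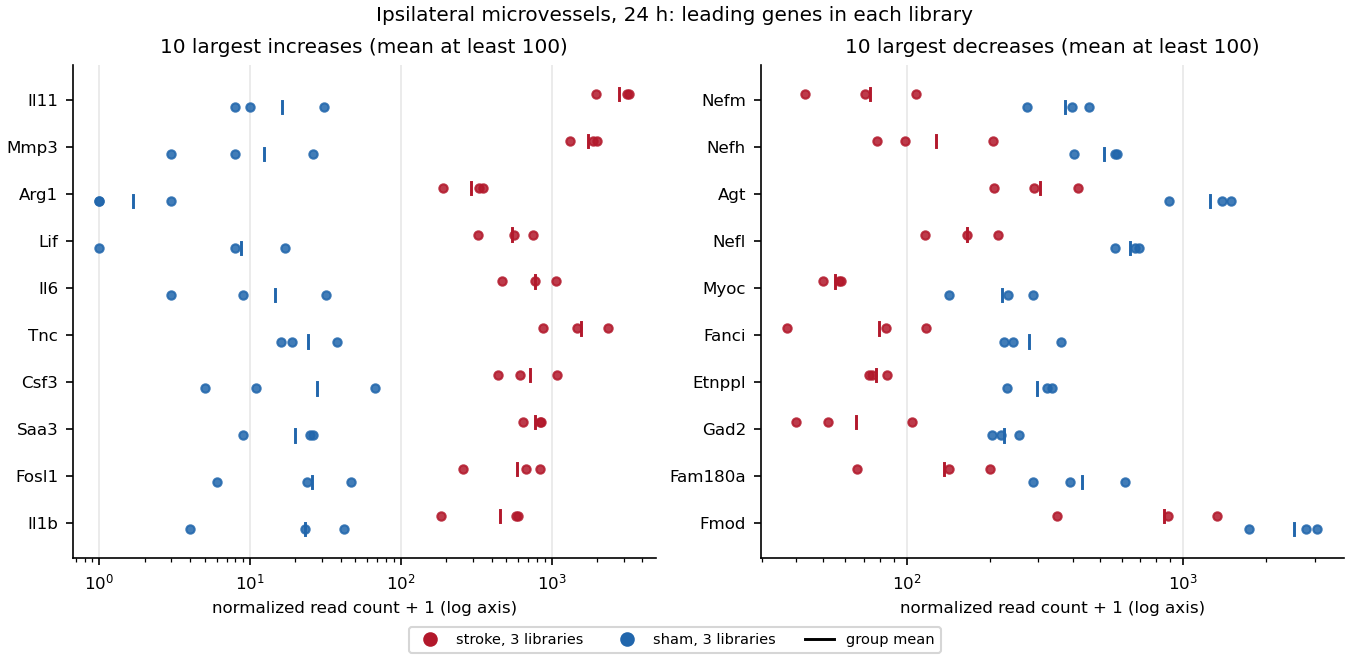
Normalized read counts plus 1 on a log axis for the 10 called genes that rose most and the 10 that fell most, among those with a mean of at least 100 and no overlap of the groups; points are the 3 stroke and 3 sham ipsilateral libraries at 24 h and vertical bars the group means. The group means differ by more than a factor of 10 for all 10 increases and by less than that for all 10 decreases.

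The 5 largest gains in mean normalized counts were in genes of the cytoskeleton and the matrix. Actb, cytoplasmic actin, had 57912, 61304 and 48650 against 26162, 27121 and 33279 normalized counts (log2 fold change 0.96), and the basement membrane collagens Col4a1 (73491, 81875 and 48910 against 30530, 30609 and 37772 normalized counts, 1.02) and Col4a2 (54985, 55282 and 35549 against 23185, 22108 and 26560 normalized counts, 1.0) were among them. Igfbp7 (82471, 89521 and 68364 against 34572, 39805 and 40054 normalized counts, 1.06), which encodes a protein of the vascular basement membrane, and Sparc (70817, 70619 and 56985 against 31944, 39280 and 36344 normalized counts, 0.88), a matrix glycoprotein, completed the 5. Single settings ended the calls of Col4a1 (sham 1 or 2, stroke 1 or 2) and Col4a2 (sham 1 or 2, stroke 1 or 2). Among the 5 largest losses, Selenop, a carrier of selenium, had 48230, 47418 and 51409 against 111434, 89687 and 120069 normalized counts (-1.12). Spock2, a proteoglycan, had 18613, 17077 and 25295 against 52586, 44455 and 44927 normalized counts (-1.24), and Bsg, the transporter partner basigin, had 36237, 41731 and 48521 against 78902, 71963 and 76946 normalized counts (-0.86). Slco1a4, an organic anion transporter, had 26681, 16408 and 35503 against 60644, 53721 and 40458 normalized counts (-1.03). In all 4 of these the groups did not overlap, and calls were lost for Slco1a4 (sham 1 or 2, stroke 2).

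Cytokines of the interleukin 6 family signal through the shared receptor gp130, encoded by Il6st, together with a receptor for each ligand. Of 19 tested genes of the family, 6 were higher and 2 lower (median log2 fold change 0.32, where the median over all tested genes was -0.02). The higher genes were the ligands Il11, Lif, Il6, Osm (35, 28 and 45 against 3, 5 and 16 normalized counts, 2.29) and Clcf1 and the receptor Il27ra. The lower genes were the receptors Cntfr (193, 202 and 213 against 354, 309 and 438 normalized counts, -0.84) and Lifr. Il6st itself had 9940, 11580 and 12133 against 7800, 8927 and 9033 normalized counts, a log2 fold change of 0.38 that stayed under the limit although its adjusted p was 0.0352. Osmr, the oncostatin M receptor, overlapped between the groups (5021, 6704 and 5329 against 4932, 6864 and 6873 normalized counts, adjusted p = 0.855). Socs3, a feedback inhibitor induced by this family, had 4013, 4526 and 2989 against 739, 1669 and 2882 normalized counts and was not called (adjusted p = 0.153). Leaving out libraries or correcting for length ended the calls of Osm (sham 1 or 2, stroke 1 or 3), Il27ra (sham 1 or 3, stroke 2), Cntfr (sham 1 or 3, stroke 1, 2 or 3) and Lifr (sham 1, stroke 1 or 2, the length correction).

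Among 28 genes of the IL-1, TNF and NF-κB pathways, 11 were higher and 0 lower, with a median of 0.67. Behind Il1b, the receptor antagonist Il1rn had 132, 101 and 77 against 0, 4 and 12 normalized counts (log2 fold change 4.66 ± 0.89, adjusted p = 6.78e-04), and it was listed at 0 in sham replicate 1. NF-κB subunits and inhibitors among the higher genes were Nfkb2, Relb, Nfkbie and Nfkbib. The count was 7 without sham 1, stroke 1 or stroke 2. Of 10 genes of colony-stimulating factors and their receptors, 6 were higher, among them the receptors Csf2rb, Csf3r and Csf2ra beside the ligand Csf3.

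Chemokines draw leukocytes to the vessel wall, and the CXC ligands with the ELR motif, such as Cxcl1, Cxcl2 and Cxcl3, act on neutrophils through Cxcr2. Of 27 chemokine ligands, 13 were higher and 1 was lower (median 1.45). Cxcl3 had 135, 93 and 48 against 0, 2 and 2 normalized counts (log2 fold change 5.36 ± 0.59, adjusted p = 3.04e-06), Cxcl2 had 191, 175 and 49 against 1, 3 and 15 normalized counts (4.56) and Cxcl1 had 1319, 1308 and 640 against 30, 55 and 215 normalized counts (3.84). These neighbours on chromosome 5 were low in sham replicates 1 and 2, and Cxcl1 and Cxcl2 were raised in sham replicate 3. Ccl2, a ligand for monocytes, had 1388, 1149 and 609 against 35, 40 and 904 normalized counts, with sham replicate 3 inside the range of the stroke libraries, and was not called (log2 fold change 3.17, adjusted p = 0.0988). Cxcl12, the ligand of CXCR4, was the gene that fell, with 6309, 6617 and 7006 against 17886, 14806 and 13407 normalized counts (log2 fold change -1.20 ± 0.16, adjusted p = 3.18e-05). The count of higher ligands was 5 without sham replicate 1 and 10 with the length correction. Of 15 chemokine receptors, 6 were higher and 0 lower. Cxcr2 had 318, 283 and 198 against 7, 37 and 27 normalized counts (log2 fold change 3.68 ± 0.89, adjusted p = 0.00457), and the monocyte receptor Ccr2 had 612, 417 and 686 against 65, 108 and 100 normalized counts (2.64). These 6 genes kept their calls whichever of the 6 libraries was left out and with the length correction.

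The proximal promoters of the 3 neutrophil chemokines are shown because they carry the same NF-κB motif, which is printed in capitals. Sequences are from RefSeq, build GRCm38.p6 (mm10), and run 5′ to 3′ in the direction of the gene.
Cxcl1 chr5:90891152-90891206 (plus strand): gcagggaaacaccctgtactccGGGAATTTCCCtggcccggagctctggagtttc
Cxcl2 chr5:90903780-90903834 (plus strand): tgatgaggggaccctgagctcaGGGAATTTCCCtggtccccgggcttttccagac
Cxcl3 chr5:90786006-90786060 (plus strand): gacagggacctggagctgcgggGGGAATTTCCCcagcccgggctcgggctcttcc
The capitals begin 71, 97 and 73 bases before the annotated start of Cxcl1, Cxcl2 and Cxcl3, and in each gene they are 2 overlapping matches, 1 on each strand. The motif was chosen after the data were seen and searched on both strands of windows from 250 bases before to 50 after each start. Of all 32851 such windows 8.46% held it. The share was 10.6% for windows of all tested genes, 11% for those of the 1214 higher genes with a sequence and 27.3% (6 of 22) for those of tested chemokine ligands. A match describes the sequence and not a bound site.

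Adhesion genes of endothelium and integrins of leukocytes were higher in part. Of 15 genes of leukocyte adhesion to endothelium, 6 were higher and 1 was lower, with a median of 0.56. Selp, which encodes P-selectin, had 2519, 2890 and 2406 against 36, 218 and 152 normalized counts (log2 fold change 4.60 ± 1.60, adjusted p = 0.0358). Ackr1, a chemokine-binding receptor of venules, had 10655, 13195 and 11323 against 554, 1862 and 1397 normalized counts (log2 fold change 3.37 ± 0.87, adjusted p = 0.00667). Both were lowest in sham replicate 1, and the stroke libraries lay above all sham libraries. Icam1 had 5027, 4004 and 3661 against 1512, 1884 and 2199 normalized counts (log2 fold change 1.19 ± 0.17, adjusted p = 5.89e-05) and the hyaluronan receptor Cd44 had 771, 428 and 541 against 53, 81 and 128 normalized counts (2.77). Sele, E-selectin, had 816, 1156 and 846 against 30, 179 and 101 normalized counts, but its adjusted p was 0.0756 in the fit that shares 1 spread over all groups. Vcam1 had 6950, 7236 and 9718 against 7341, 9129 and 7321 normalized counts and overlapped. Of 7 tested leukocyte integrins, 5 were higher and 0 lower (median 1.88). Itgal had 426, 214 and 307 against 23, 75 and 40 normalized counts (log2 fold change 2.85 ± 0.46, adjusted p = 1.57e-04), and Itgam and Itgb2, the chains of Mac-1, had 252, 195 and 231 against 23, 36 and 45 normalized counts (2.71) and 966, 604 and 755 against 111, 206 and 183 normalized counts (2.23). Alcam, which also mediates adhesion, was the member that fell (-0.60). Of the genes named, the call depended on the setting in Selp (sham 1 or 3, stroke 1, 2 or 3) and Alcam (sham 2, stroke 2, the length correction).

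Markers of blood leukocytes moved with these genes. Of 14 neutrophil genes tested, 12 were higher, with a median of 2.91, and their summed levels were 7673, 5619 and 3577 against 294, 1386 and 794 normalized counts. The defining genes S100a8 (1404, 1150 and 690 against 62, 320 and 176 normalized counts, 2.76) and S100a9 (2718, 1698 and 1017 against 66, 472 and 235 normalized counts, 3.10) were called, whereas Ly6g, at 20, 21 and 9 against 0, 2 and 3 normalized counts, was too low to be tested. The calls of S100a8 (adjusted p = 0.0446) and S100a9 (adjusted p = 0.0267) were near the threshold, and both genes were lowest in sham replicate 1. Whether these calls held without single libraries is not given. Trem1, a receptor of neutrophils and monocytes, had the largest increase (195, 97 and 163 against 0, 8 and 4 normalized counts, log2 fold change 5.37 ± 0.87, adjusted p = 1.56e-04). The number called higher was 6 without sham 1 or stroke 1 and 7 without stroke 2. Of 23 monocyte and macrophage genes, 13 were higher (median 0.93), led by Arg1, Chil3 (3089, 1181 and 2663 against 52, 203 and 91 normalized counts, 4.42) and Plac8 (292, 226 and 238 against 7, 39 and 10 normalized counts, 4.05). Of 14 genes of T, NK and B cells, 4 were higher, namely Cd79b, Il2rb, Lck and Cd79a, and 0 were without sham 1, 1 without stroke 1 or stroke 2 and 2 without sham 3 or with the length correction. Cd79b had 27, 23 and 34 against 2, 7 and 16 normalized counts (1.95). In bulk libraries more or fewer cells of a type and more or less RNA per cell cannot be told apart, and the part of leukocyte RNA in the changes of adhesion, chemokine and proteinase genes was not tested.

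Humoral defence genes were divided. Of 17 acute-phase genes, 5 were higher, namely Saa3, Hp (831, 369 and 434 against 14, 71 and 49 normalized counts, 3.76), Ptx3, Saa1 and Saa2, and the last pair are near-identical copies whose reads are uncertain. Lcn2, lipocalin 2, had 32368, 23389 and 24827 against 4535, 5871 and 8703 normalized counts, with all stroke libraries above all sham libraries, but was not called (adjusted p = 0.135). Serpina3n overlapped (5289, 4877 and 6164 against 4919, 8099 and 7181 normalized counts). Of 23 complement genes, 5 were higher, namely Itgam, C3, Itgax, C5ar1 and Cfp. Itgam rose most (2.71), and Itgam and Itgax are also among the leukocyte integrins counted above. C3 had 337, 295 and 291 against 36, 41 and 76 normalized counts (log2 fold change 2.64 ± 0.47, adjusted p = 4.11e-04). Among 36 interferon-stimulated genes, 8 were higher and 1 was lower, a share of 22.2% for the higher genes (median 0.09). Oas3 had 35, 58 and 27 against 1, 7 and 11 normalized counts (2.76) and Ifitm1 had 3196, 2938 and 3599 against 637, 1684 and 1132 normalized counts (1.60), while Ifit2 fell with 268, 461 and 304 against 546, 516 and 541 normalized counts (-0.67). The group of interferon genes was uneven between stroke libraries, with 46143, 62788 and 47200 normalized counts in all against 31170 to 35468, and its number of higher genes was 4 without sham 1 and 5 without sham 3, without stroke 2, with centring or with the length correction. Of 21 genes of MHC and antigen presentation, 5 were higher, of which Tap1, a peptide transporter, rose most (1053, 1422 and 901 against 658, 699 and 654 normalized counts, 0.72), and the number was 3 without sham 1, sham 2 or stroke 1, 1 without stroke 2 and 2 with centring or the length correction. Calls were lost for Ifitm1 (sham 1), Ifit2 (stroke 1) and Tap1 (stroke 2).

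Matrix proteinases degrade the basement membrane, and tissue inhibitors (Timp genes) restrain them. Of 32 genes of this kind, 11 were higher and 3 lower (median 0.45). Behind Mmp3, the inhibitor Timp1 had 1048, 1595 and 971 against 61, 115 and 164 normalized counts (log2 fold change 3.47 ± 0.67, adjusted p = 7.66e-04). The aggrecanase Adamts4 had 2776, 3543 and 1286 against 161, 126 and 771 normalized counts (3.21), and Mmp12, the macrophage elastase, had 132, 143 and 64 against 8, 11 and 16 normalized counts (3.13). The gelatinase Mmp9 had 513, 350 and 282 against 28, 111 and 58 normalized counts (log2 fold change 2.69 ± 0.51, adjusted p = 6.30e-04) and the collagenases Mmp8 and Mmp13 had 376, 375 and 211 against 11, 58 and 54 normalized counts (3.20) and 22, 20 and 12 against 0, 6 and 13 normalized counts (2.0), the latter with overlap of the groups. Mmp8 and Mmp9 are also on the list of neutrophil genes. Plau, the urokinase that activates such enzymes, had 901, 625 and 586 against 137, 292 and 151 normalized counts (1.92). Reck, a membrane inhibitor of metalloproteinases, fell with 3389, 2293 and 5158 against 8544, 7230 and 6998 normalized counts (log2 fold change -1.14 ± 0.29, adjusted p = 0.00577), and Timp3, which is bound to the matrix, had 29402, 28303 and 35302 against 50685, 38316 and 66400 normalized counts and was not called (adjusted p = 0.0811). Without sham 1 the number of higher genes was 7, without stroke 2 that of lower genes was 1, and calls were lost for Mmp8 (sham 1, stroke 1 or 2) and Mmp13 (sham 1 or 2, stroke 1, 2 or 3, the length correction).

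Mmp3, Mmp12 and Mmp13 lie in 1 cluster on chromosome 9, and their promoters are shown since each holds the AP-1 motif TGANTCA close to the start, in capitals (RefSeq, GRCm38.p6).
Mmp3 chr9:7445754-7445804 (plus strand): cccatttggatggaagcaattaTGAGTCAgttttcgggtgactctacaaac
Mmp12 chr9:7347308-7347358 (plus strand): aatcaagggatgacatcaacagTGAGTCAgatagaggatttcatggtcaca
Mmp13 chr9:7272457-7272507 (plus strand): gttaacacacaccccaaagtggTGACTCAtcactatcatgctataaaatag
The motif began 46, 44 and 35 bases before the start. In Mmp12 1 of 2 annotated promoters held it. Over both strands it was present in 7.81% of all promoter windows, in 5.34% of those of the tested genes, in 7.72% of those of the higher genes and in 5.11% of those of the lower genes. In the list of matrix proteinases and inhibitors 3 of 25 windows held it (12.0%). The promoters shown were chosen after the data were seen. Of AP-1 genes, Fosl1 was called, while Fos overlapped (847, 907 and 443 against 165, 311 and 545 normalized counts, adjusted p = 0.254). Among 28 immediate early genes, 2 were higher (7.14%, Fosl1 and Dusp5) and 1 lower (3.57%, Nr4a2, 127, 160 and 190 against 303, 266 and 282 normalized counts, -0.85), against 10.0% and 8.23% of all genes. Calls were lost for Fosl1 (sham 2, stroke 1 or 2) and Nr4a2 (sham 1, 2 or 3, stroke 1 or 2).

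Basement membrane and matrix genes changed in both directions. Of 37, 9 were higher and 13 lower, with a median of -0.42. Higher were tenascin-C, the thrombospondin Thbs1 (6464, 3109 and 4692 against 399, 556 and 1661 normalized counts, 2.66), the proteoglycans Vcan (735, 600 and 704 against 137, 162 and 159 normalized counts, 2.15) and Hspg2, which encodes perlecan (8172, 9763 and 5131 against 3957, 3230 and 3619 normalized counts, 1.05), and the collagen IV chains of the vessel wall, Col4a1 and Col4a2. Lower were the collagen IV chains Col4a3, Col4a4, Col4a5 and Col4a6, the laminin chains Lama2, Lama3 and Lamc3 and the brain proteoglycans Acan and Bcan. Acan had the largest decrease, but from low values (6, 4 and 0 against 7, 11 and 18 normalized counts, -1.90). With the length correction 10 genes were higher and 8 lower and the median was -0.11, without stroke replicate 2 the number of lower genes was 7, and these genes have long transcripts (median 6450 bases). Of 17 integrins of matrix and platelets, 4 were higher, with Itga2 at 21, 42 and 19 against 3, 7 and 2 normalized counts (2.54) and the fibronectin receptor chain Itga5 at 3893, 4587 and 2963 against 1208, 1291 and 1538 normalized counts (log2 fold change 1.49 ± 0.15, adjusted p = 1.30e-06), and Itgb8 was lower at 56, 86 and 62 against 134, 120 and 156 normalized counts (-1.01). Among them calls were lost for Acan (sham 2 or 3, stroke 3, the length correction) and Itgb8 (sham 3, stroke 1, the length correction).

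Genes of endothelial identity were called higher in 5.0% and lower in 5.0% of cases, against 10.0% and 8.23% of all genes. Of 20, 1 was higher, Emcn, the sialomucin endomucin (8295, 10281 and 6430 against 4565, 4559 and 4487 normalized counts, log2 fold change 0.85 ± 0.18, adjusted p = 0.00182), and 1 lower, Ptprb, the phosphatase VE-PTP (23125, 24076 and 28713 against 41683, 34650 and 37587 normalized counts, log2 fold change -0.59 ± 0.17, adjusted p = 0.0159). Cdh5, VE-cadherin, had 19732, 25185 and 13656 against 13987, 11532 and 17721 normalized counts and was not called (adjusted p = 0.188). Of 22 endothelial transcription factors, 1 was higher, Bcl6b (1365, 1360 and 794 against 529, 455 and 647 normalized counts, 1.08), and 3 were lower, Hey1 (986, 1068 and 1043 against 1871, 1588 and 1631 normalized counts, -0.71) and Foxq1 among them. These were 4.55% and 13.6% of that list. Sox17 had 3432, 4165 and 4294 against 6404, 4490 and 5640 normalized counts, a log2 fold change of -0.47 that was under the limit (adjusted p = 0.0370). Of 26 arterial and venous genes, Ackr1, Gja5 and Icam1 were higher (11.5%) and Hey1 lower (3.85%). Gja5, a gap junction protein of arterial endothelium, varied little within the groups, with 1944, 1911 and 1953 against 706, 731 and 803 normalized counts (log2 fold change 1.38 ± 0.16, adjusted p = 6.62e-06). Single settings ended the calls of Ptprb (sham 1, stroke 1 or 2, the length correction) and Foxq1 (sham 2, stroke 1, the length correction).

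The list of tight and adherens junction genes, which also held the gap junction gene Gja5, had log2 fold changes from -0.94 to 1.38. Of 25, 2 were higher and 1 was lower, below the shares of 10.0% and 8.23% among all genes (median -0.03). Cldn5, the main claudin of brain endothelium, had 47535, 48060 and 42176 against 50190, 47515 and 43185 normalized counts, a log2 fold change of -0.03 (95% confidence interval -0.37 to 0.31). Ocln had 5798, 5836 and 6192 against 9477, 8064 and 8264 normalized counts without overlap of the groups, and its log2 fold change of -0.53 ± 0.12 passed the test (adjusted p = 0.00285) but not the limit on size. The scaffold protein gene Tjp1 fell with 10290, 9953 and 11739 against 18541, 15499 and 15465 normalized counts (log2 fold change -0.63 ± 0.13, adjusted p = 0.00184), and Gja5 and Nectin2 (1139, 1136 and 903 against 612, 753 and 686 normalized counts, 0.63) rose. Of 13 genes of caveolae and fenestration, Cavin3 was higher (0.73) and Cavin2 lower (-0.63), each 7.69% of the list and below the shares among all genes. Plvap, a gene of leaky endothelium, overlapped (692, 980 and 1127 against 628, 521 and 1108 normalized counts). Leaving out libraries or correcting for length ended the calls of Tjp1 (sham 1, stroke 2, the length correction), Nectin2 (sham 1, stroke 1 or 2), Cavin3 (sham 1 or 2, stroke 1 or 2, the length correction) and Cavin2 (sham 1 or 3, stroke 1 or 2).

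The transporter list of the blood-brain barrier had the lowest median of the vascular lists (-0.54). Of 33 genes, 16 were lower (48.5%, against 8.23% of all genes) and 1 was higher. Carriers and pumps made up 28 of them, with 12 lower, 1 higher and a median of -0.53. The other 5 were the receptors Tfrc, Lrp8, Igf1r and Insr and the proteoglycan Spock2, of which all but Insr were lower. Slc19a3 (chr1:83012523-83038448), a thiamine transporter, had 873, 839 and 1222 against 3136, 2648 and 2920 normalized counts (log2 fold change -1.59 ± 0.18, adjusted p = 4.01e-06). The efflux pump Abcb1a (P-glycoprotein) had 16641, 14711 and 19865 against 35432, 28601 and 29198 normalized counts (log2 fold change -0.87 ± 0.16, adjusted p = 4.41e-04). Lipid and hormone carriers fell too, with Mfsd2a, which imports lysophosphatidylcholine, at 4021, 2666 and 3764 against 6578, 6588 and 5452 normalized counts (-0.85) and Slco1c1, a thyroxine carrier, at 18101, 12957 and 21755 against 31359, 29860 and 25101 normalized counts (-0.73). The amino acid transporter Slc7a5 had 11460, 11411 and 11826 against 25524, 17604 and 27779 normalized counts (log2 fold change -1.0 ± 0.24, adjusted p = 0.00360) and the lactate transporter Slc16a1 had 6254, 5091 and 8318 against 13491, 16219 and 10043 normalized counts (-1.02). Tfrc, the transferrin receptor, was uneven in the sham group (2764, 1941 and 3884 against 9466, 7007 and 4147 normalized counts, -1.24). Other carriers were not called or rose. The glucose transporter Slc2a1 had 129950, 133462 and 119196 against 148717, 132108 and 202531 normalized counts with overlap (log2 fold change -0.31, 95% confidence interval -1.03 to 0.40), the efflux pump Abcg2 had 8105, 8842 and 9603 against 12152, 10588 and 10467 normalized counts (adjusted p = 0.157), and the export pump Abcc1 rose with 842, 821 and 671 against 399, 478 and 489 normalized counts (log2 fold change 0.77 ± 0.12, adjusted p = 1.14e-04). The number of lower genes was 10 without sham 1 or stroke 2 and 12 with the length correction. The call did not hold in every setting for Slco1c1 (sham 1 or 2, stroke 1 or 2), Slc16a1 (sham 2, stroke 2), Tfrc (sham 1 or 2, stroke 1 or 2, the length correction) and Slco1a4 (sham 1 or 2, stroke 2).

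**Figure D2:**
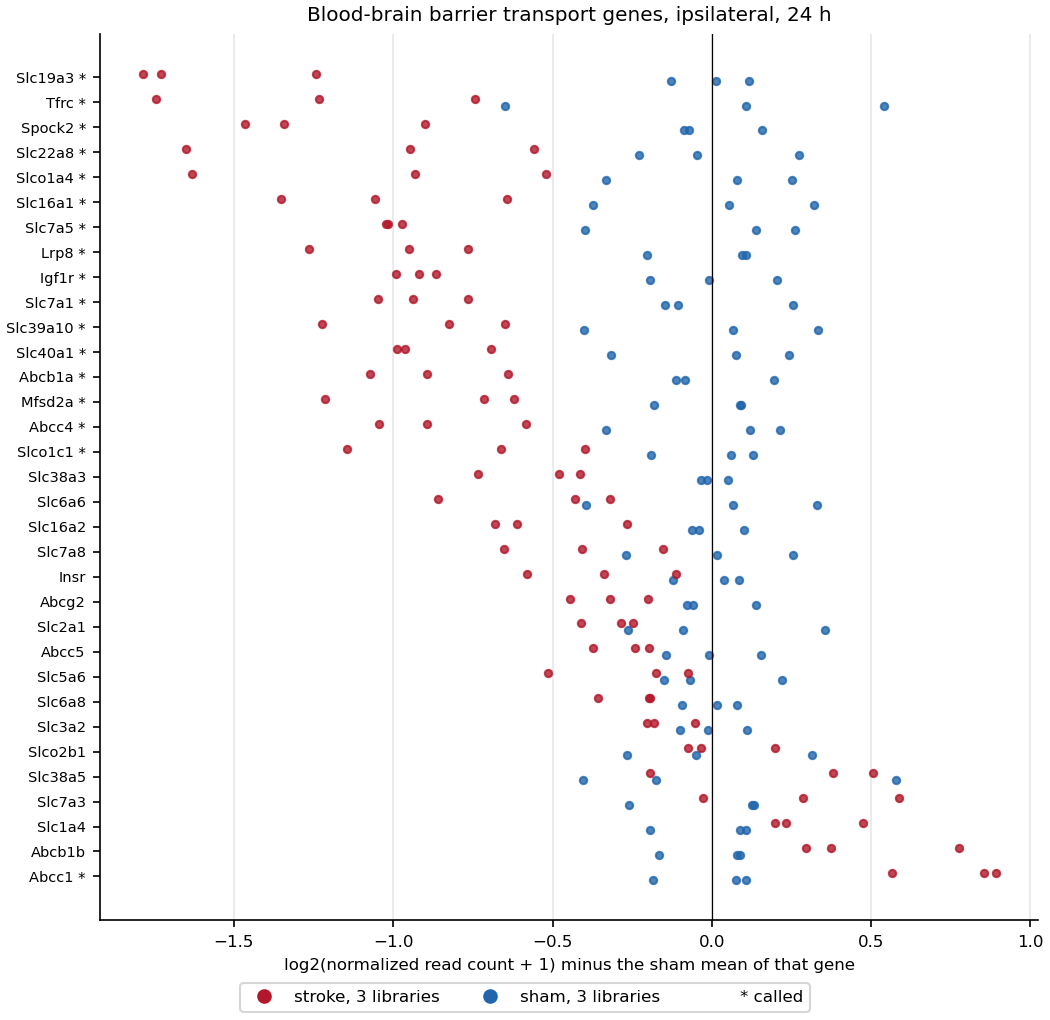
Log2 values of the 33 tested genes of the transporter list in each library, as the difference from the sham mean of the gene; points are 3 stroke and 3 sham ipsilateral libraries and a star marks a called gene. The 16 genes called lower lie at the top, Slc19a3 first, and Abcc1, the gene called higher, lies at the bottom.

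The Wnt and β-catenin pathway held 0 higher and 13 lower genes among 48 tested (27.1%, median -0.46). Feedback targets of the pathway were among the lower genes, with Axin2 at 912, 667 and 1274 against 2440, 2247 and 1813 normalized counts (log2 fold change -1.23 ± 0.21, adjusted p = 3.10e-04), Notum, a secreted inhibitor of Wnt ligands, at 399, 341 and 516 against 1228, 963 and 800 normalized counts (log2 fold change -1.25 ± 0.25, adjusted p = 0.00106), and Znrf3. Sfrp5, a secreted antagonist, had the largest decrease (35, 19 and 13 against 67, 60 and 90 normalized counts, -1.74). Its contralateral sham libraries, at 19, 26 and 51 normalized counts, overlapped with the ipsilateral stroke libraries. Of the co-receptors, Lrp6 fell (1676, 1610 and 1908 against 3017, 2846 and 2756 normalized counts, log2 fold change -0.73 ± 0.12, adjusted p = 1.91e-04) and Lrp5 had 3719, 3727 and 3697 against 4749, 4329 and 4889 normalized counts, a log2 fold change of -0.32 under the limit (adjusted p = 0.0491). The ligands Wnt5a (1002, 1137 and 1199 against 1779, 1864 and 1393 normalized counts, -0.59) and Wnt11 (76, 48 and 75 against 121, 83 and 169 normalized counts, -0.87) were lower, and so were the receptors Fzd2, Fzd3, Fzd6 and Fzd7. Fzd4, the receptor for norrin on brain endothelium, overlapped (4169, 4647 and 3880 against 5319, 3467 and 5664 normalized counts), and the targets Lef1 (2252, 2636 and 2012 against 3141, 2983 and 3704 normalized counts, -0.51) and Apcdd1 (6880, 5792 and 6584 against 9101, 9708 and 7713 normalized counts, -0.46) lay below all sham libraries by less than the limit. The number of lower genes was 7 without sham 1 and 8 with the length correction, and calls were lost for Sfrp5 (sham 1 or 3, stroke 2 or 3), Lrp6 (the length correction), Wnt5a (sham 1 or 2, stroke 1, the length correction) and Wnt11 (sham 1 or 3, stroke 2).

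Of 20 angiogenic ligands and receptors, 2 were higher (10.0%, as among all genes) and 1 was lower. Met, the receptor of hepatocyte growth factor, had 53, 46 and 49 against 4, 12 and 10 normalized counts (2.49) and Angpt4, an angiopoietin, had 14, 17 and 38 against 72, 58 and 52 normalized counts (-1.48). Vegfa (209, 256 and 185 against 133, 215 and 260 normalized counts) overlapped and Angpt2 (11478, 10959 and 4537 against 2010, 1921 and 4025 normalized counts) was not called (adjusted p = 0.0991). Of 22 genes of endothelial tip cells, which lead a sprout, 7 were higher and 1 was lower (median 0.70). Apln, the ligand apelin, had 6818, 3074 and 1958 against 188, 170 and 157 normalized counts (log2 fold change 4.33 ± 0.42, adjusted p = 8.86e-07), the lowest stroke library being at more than 10 times the highest sham library. Kcne3 (94, 70 and 41 against 10, 10 and 15 normalized counts, 2.40) and Odc1 (5868, 5754 and 2856 against 635, 938 and 2064 normalized counts, 2.10) followed, and Pcdh17 was lower (-0.65). The number of higher tip cell genes was 3 without sham 1 or stroke 1 and 4 without sham 2 or stroke 2. Among vasoactive genes, 3 of 23 were higher and 2 lower, shares near the 10.0% and 8.23% of all genes. The endothelin receptor Ednrb rose most, with 2063, 2816 and 1295 against 293, 284 and 501 normalized counts (log2 fold change 2.50 ± 0.34, adjusted p = 2.84e-05). The nitric oxide receptor chains Gucy1a3 (1219, 915 and 1768 against 2004, 2160 and 1955 normalized counts, -0.70) and Gucy1b3 were lower. With the length correction 6 genes of this list were higher and 0 lower, and 0 were lower without sham 1, sham 2, stroke 1 or stroke 2. Endothelin itself (Edn1) had 6878, 8687 and 6167 against 5939, 6571 and 7337 normalized counts and overlapped. Of the genes named, the call depended on the setting in Fgf2 (sham 1 or 2, stroke 1, 2 or 3), Kcne3 (sham 1, 2 or 3, stroke 1 or 2, the length correction), Pcdh17 (sham 1 or 3, stroke 1, 2 or 3, the length correction), Gucy1a3 (sham 1 or 2, stroke 1 or 2, the length correction) and Gucy1b3 (sham 1, 2 or 3, stroke 1 or 2, the length correction).

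Coagulation and fibrinolysis genes moved upward, with 8 of 18 higher and 0 lower (median 0.64). F10, coagulation factor X, had 117, 38 and 84 against 4, 16 and 10 normalized counts (log2 fold change 2.90 ± 0.63, adjusted p = 0.00194). Thbs1 is given above, and Tfpi2, an inhibitor of serine proteases, had 286, 206 and 180 against 40, 33 and 54 normalized counts (2.38). Vwf, von Willebrand factor, overlapped at high levels (59684, 56618 and 73823 against 58797, 63604 and 56521 normalized counts, log2 fold change 0.08 ± 0.18). In TGF-β and BMP signalling, 5 of 34 genes were higher (14.7%) and 3 lower (8.82%), near the 10.0% and 8.23% of all genes. Gdf15, a stress-induced ligand, had 350, 70 and 62 against 4, 5 and 9 normalized counts (log2 fold change 4.12 ± 0.59, adjusted p = 5.03e-05) with the highest value in replicate 1, and Inhbb, an activin chain, had 1307, 1901 and 495 against 104, 87 and 357 normalized counts (2.85). Nog, the BMP antagonist noggin, fell with 24, 42 and 30 against 96, 76 and 61 normalized counts (-1.27), as did the ligands Bmp2 and Bmp6. The higher genes of this list were 3 without sham 1, sham 2 or stroke 2, the lower genes were 1 without sham 3 or stroke 1 and 6 without stroke 3 and 5 with centring, and Inhbb (sham 1 or 2, stroke 2) lost the call in single settings.

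Genes of protein turnover and ribosome production were higher in most members. The proteasome degrades tagged proteins, and 33 of its 35 tested subunits were higher (94.3%, against 10.0% of all genes, median 0.76). Log2 fold changes ran from 0.043 to 1.15. Psmd14, a deubiquitinase of the regulatory particle, had 1924, 2170 and 1602 against 863, 850 and 826 normalized counts (log2 fold change 1.15 ± 0.09, adjusted p = 1.12e-07), and the catalytic subunit Psmb5 had 836, 824 and 626 against 327, 403 and 389 normalized counts (1.02). Proteasome transcripts are short (median 1883 bases), and 19 subunits were called with the length correction, where the list median was 0.61, against 28 with centring. Of 41 genes of ribosome biogenesis, which make and process ribosomal RNA, 34 were higher (82.9%, median 0.87) and 41 had a positive log2 fold change. Polr1e, a subunit of RNA polymerase I, had 357, 285 and 248 against 82, 89 and 85 normalized counts (log2 fold change 1.77 ± 0.21, adjusted p = 6.58e-06), the rRNA methyltransferase Nop2 had 1046, 885 and 845 against 404, 404 and 467 normalized counts (1.12) and nucleophosmin (Npm1) had 4302, 4361 and 3934 against 2255, 2246 and 2403 normalized counts (log2 fold change 0.87 ± 0.08, adjusted p = 5.77e-07). Here 31 genes were called with the length correction and the median was 0.89. Srm, spermidine synthase, rose with 1221, 980 and 954 against 335, 336 and 306 normalized counts (log2 fold change 1.68 ± 0.18, adjusted p = 2.25e-06), and with Arg1, Arg2 (55, 33 and 35 against 3, 6 and 2 normalized counts, 3.22), Odc1 and Nos2 it made 5 of 15 genes of polyamine and arginine metabolism. Amd1 (561, 704 and 825 against 1198, 976 and 1294 normalized counts, -0.74) and Slc7a2 were lower, and calls were lost for Amd1 (sham 3, stroke 1) and Slc7a2 (stroke 2, the length correction).

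The unfolded protein response raises chaperones of the endoplasmic reticulum, and the integrated stress response raises amino acid and one-carbon enzymes through Atf4. Of 33 genes of both, 14 were higher and 0 lower (median 0.51). Mthfd2, a mitochondrial folate enzyme, had 466, 418 and 307 against 81, 111 and 133 normalized counts (log2 fold change 1.87 ± 0.43, adjusted p = 0.00327), Asns, asparagine synthetase, had 945, 991 and 727 against 301, 408 and 313 normalized counts (1.38) and the chaperone cofactor Sdf2l1 had 313, 381 and 425 against 103, 189 and 101 normalized counts (1.55). Hspa5, the chaperone BiP, had 16838, 17770 and 17513 against 8185, 10753 and 11169 normalized counts (log2 fold change 0.80 ± 0.12, adjusted p = 7.09e-05), Calr, calreticulin, had 11183, 14069 and 12159 against 5449, 7271 and 7108 normalized counts (0.92), Pdia6 had 5365, 6399 and 5362 against 2435, 3244 and 2659 normalized counts (1.04) and Creld2 had 1117, 1138 and 1108 against 503, 667 and 514 normalized counts (1.01). In these 4 genes all stroke libraries lay above all sham libraries. Ddit3, the factor CHOP, overlapped (538, 429 and 459 against 325, 385 and 442 normalized counts, adjusted p = 0.134). The promoters of these 4 genes each contain the endoplasmic reticulum stress response element, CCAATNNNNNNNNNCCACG on either strand, which is in capitals below (RefSeq, GRCm38.p6).
Pdia6 chr12:17266469-17266531 (plus strand): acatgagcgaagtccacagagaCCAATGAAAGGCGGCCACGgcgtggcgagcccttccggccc
Creld2 chr15:88819498-88819560 (plus strand): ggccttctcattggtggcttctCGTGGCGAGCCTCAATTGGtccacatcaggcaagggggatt
Calr chr8:84847053-84847115 (minus strand): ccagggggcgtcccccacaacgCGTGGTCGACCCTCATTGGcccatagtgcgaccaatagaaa
Hspa5 chr2:34772003-34772065 (plus strand): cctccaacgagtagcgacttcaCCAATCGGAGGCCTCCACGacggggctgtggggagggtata
The element lies within 162 bases before the start in all 4, and in Creld2 and Calr it is read on the opposite strand. Over the annotation 39 of 32851 promoter windows held it (0.119%), of which 7 were among the 32 windows of this list and 5 among the 1476 windows of all higher genes. The letters were chosen after the data were seen.

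Oxidative stress genes were higher in 15 of 34 cases and lower in 0 (median 0.74). Hmox1, the oxygenase that breaks down heme, had 6397, 7461 and 2069 against 248, 408 and 415 normalized counts (log2 fold change 3.73 ± 0.35, adjusted p = 5.77e-07), with stroke replicate 3 less than 1 in 3 of the others but above all sham libraries. The targets of the factor NRF2 were among them, with Nqo1 at 568, 750 and 336 against 131, 149 and 108 normalized counts (2.02), Srxn1 at 2144, 2543 and 947 against 469, 458 and 714 normalized counts (1.69) and Gclm at 3440, 4267 and 2294 against 1751, 1445 and 1467 normalized counts (log2 fold change 1.06 ± 0.15, adjusted p = 4.55e-05). The list also held phagocyte NADPH oxidase subunits, of which Ncf1, Ncf4, Cyba and Cybb were higher. The metallothioneins Mt1 (10854, 16634 and 6532 against 2474, 1573 and 8913 normalized counts) and Mt2 (16240, 25096 and 9642 against 2226, 1401 and 8554 normalized counts) were not called, with sham replicate 3 close to or above the lowest stroke library (adjusted p = 0.206 and 0.137). Heat shock proteins were higher in 7 and lower in 1 of 37 cases. Hspe1, the mitochondrial chaperonin cofactor, had 586, 506 and 480 against 237, 266 and 240 normalized counts (log2 fold change 1.07 ± 0.13, adjusted p = 7.48e-06), Hspa12a fell (399, 289 and 466 against 633, 801 and 547 normalized counts, -0.79) and the inducible Hspa1a overlapped (610, 279 and 308 against 238, 212 and 309 normalized counts). Higher heat shock genes numbered 4 without sham 1, with centring or with the length correction.

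Metabolic lists held calls in both directions. Of 37 genes of hypoxia and glycolysis, 5 were higher (13.5%, against 10.0% of all genes) and 2 lower (median -0.03, and 0.10 with the length correction), with Gapdh at 7797, 8479 and 6133 against 2762, 3219 and 3696 normalized counts (log2 fold change 1.21 ± 0.18, adjusted p = 8.91e-05) and Pkm at 16045, 15579 and 12072 against 7933, 8843 and 9719 normalized counts (0.72), while Aldoc, an aldolase of astrocytes, fell (1233, 1586 and 986 against 2406, 2083 and 2998 normalized counts, -0.99) and Ldha overlapped (9905, 11924 and 9213 against 6103, 7096 and 9948 normalized counts). Of 32 genes of cholesterol synthesis and handling, 6 were higher (18.8%) and Apoe was lower. Sqle, squalene epoxidase, had 497, 486 and 492 against 171, 214 and 187 normalized counts (log2 fold change 1.37 ± 0.21, adjusted p = 8.47e-05), and Apoe, the lipid carrier of astrocytes, had 23255, 22529 and 31318 against 40154, 49460 and 51914 normalized counts (log2 fold change -0.88 ± 0.19, adjusted p = 0.00166). Among 21 genes of mitophagy and mitochondrial dynamics, Phb2 was higher (2165, 2128 and 1958 against 1277, 1309 and 1383 normalized counts, 0.65) and Pink1, a kinase that marks damaged mitochondria, was lower (3664, 3782 and 4487 against 6908, 6318 and 6413 normalized counts, log2 fold change -0.72 ± 0.13, adjusted p = 3.87e-04), as was Ppargc1a, a regulator of mitochondrial number (39, 38 and 31 against 96, 74 and 58 normalized counts, -1.03). The higher and lower genes were 4.76% and 9.52% of that list. Of 20 clock genes 0 were higher and 3 lower (15.0%, against 8.23% of all genes), of which Npas2 had 34, 45 and 28 against 106, 102 and 100 normalized counts (log2 fold change -1.52 ± 0.28, adjusted p = 5.72e-04). Of 20 glucocorticoid-responsive genes, 1 was higher (5.0%, Hsd11b1, 0.94) and 2 were lower (10.0%, Nr3c2, -0.81, and Klf9), against 10.0% and 8.23% of all genes. Fkbp5 varied as much within the sham group as between groups (3250, 4660 and 3126 against 2651, 1631 and 4992 normalized counts). Gapdh has many pseudogene copies, and reads that matched several genes were left out of the counts. Calls were lost for Aldoc (sham 1 or 3, stroke 1 or 3), Phb2 (the length correction), Ppargc1a (sham 1, the length correction), Hsd11b1 (sham 1 or 3, stroke 1 or 3, the length correction), Nr3c2 (sham 1, stroke 2, the length correction) and Klf9 (sham 1 or 3, stroke 2, the length correction).

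Genes of cell death and division were higher in part. Of 35 genes of apoptosis and lytic cell death, 12 were higher and 0 lower (median 0.33). The necroptosis genes Zbp1 (104, 262 and 92 against 28, 48 and 48 normalized counts, log2 fold change 1.74 ± 0.35, adjusted p = 0.00116), Ripk3 (185, 169 and 153 against 48, 43 and 62 normalized counts, 1.72) and Mlkl (445, 515 and 304 against 137, 115 and 123 normalized counts, log2 fold change 1.72 ± 0.16, adjusted p = 5.91e-07) led, followed by the inflammasome sensor Nlrp3 (97, 46 and 59 against 18, 28 and 16 normalized counts, 1.63). Zbp1 was highest in stroke replicate 2, the library with the highest interferon genes. Of 34 cell cycle genes, 8 were higher. They included Ccnd1, cyclin D1 (3523, 2619 and 2694 against 1721, 1650 and 1495 normalized counts, log2 fold change 0.85 ± 0.16, adjusted p = 5.17e-04), and the replication factors Mcm2, Mcm3, Mcm5 (200, 270 and 245 against 114, 114 and 108 normalized counts, 1.07), Cdt1 and Pcna, while the proliferation marker Mki67 was low and overlapped (10, 27 and 16 against 16, 9 and 11 normalized counts). Aurkb, a mitotic kinase, had the largest increase from few counts (4, 14 and 5 against 1, 2 and 2 normalized counts, 1.55), and calls were lost for Aurkb (sham 1, stroke 2). Samhd1, a nucleotide hydrolase, was not called (1985, 2196 and 2243 against 2063, 2110 and 2213 normalized counts, log2 fold change 0.01, 95% confidence interval -0.25 to 0.26).

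Of the 10 largest decreases among called genes with a mean of at least 100 normalized counts and no overlap, 4 were in genes of neurons and 2 in genes of astrocytes. The neurofilament chains Nefm (70, 107 and 42 against 272, 455 and 396 normalized counts, log2 fold change -2.41 ± 0.59, adjusted p = 0.00513), Nefh (98, 204 and 77 against 403, 577 and 567 normalized counts, -2.13) and Nefl (165, 214 and 116 against 567, 669 and 694 normalized counts, -2.0) are structural proteins of axons, and Gad2 (39, 104 and 51 against 202, 253 and 219 normalized counts, -1.90) makes the transmitter GABA. Agt, angiotensinogen, which astrocytes produce in brain, had 288, 416 and 206 against 1485, 888 and 1376 normalized counts (log2 fold change -2.06 ± 0.61, adjusted p = 0.0152), and Etnppl, an enzyme of astrocytes, had 72, 84 and 74 against 335, 229 and 322 normalized counts (log2 fold change -1.92 ± 0.39, adjusted p = 0.00118). The matrix proteoglycan Fmod (879, 348 and 1325 against 1728, 3053 and 2791 normalized counts, -1.73), Myoc, myocilin (57, 56 and 49 against 232, 286 and 141 normalized counts, -1.95), Fanci, a DNA repair protein (83, 36 and 117 against 225, 361 and 241 normalized counts, -1.92), and Fam180a (142, 65 and 199 against 286, 614 and 389 normalized counts, -1.73) completed the 10. In all 10 the groups did not overlap, and calls were lost for Nefh (sham 1, 2 or 3, stroke 1 or 3), Gad2 (stroke 1), Agt (sham 1, stroke 3), Myoc (sham 1 or 2, stroke 1, 2 or 3) and Fam180a (stroke 2). The difference between the ipsilateral and the contralateral stroke effect did not pass limma's test for any of them (adjusted p = 0.0630 to 0.579). Contralateral sham libraries overlapped with the ipsilateral stroke libraries in Nefm, Nefh, Gad2, Agt and Myoc and lay above them in the others. Nefh had 85, 168 and 617 normalized counts in the contralateral sham libraries.

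Markers of the cells around the endothelium were lower in part. Of 24 neuron genes, 15 were lower and 0 higher (median -1.22), and the summed levels were 7768, 9306 and 6814 against 17419, 16434 and 16782 normalized counts. Snap25, a protein of the synapse, had 406, 583 and 410 against 1266, 1296 and 1098 normalized counts. Of 20 astrocyte genes, 12 were lower and 0 higher (median -0.92, sums 19721, 25041 and 20202 against 36143, 31546 and 42442 normalized counts). The ipsilateral sham libraries stood above the contralateral sham libraries in both lists, which summed there to 13128, 11798 and 16297 normalized counts for neuron and 25090, 26855 and 29852 for astrocyte genes. The endfoot water channel Aqp4 had 157, 293 and 154 against 561, 363 and 703 normalized counts (log2 fold change -1.44 ± 0.49, adjusted p = 0.0313), the glutamate transporter Slc1a2 had 3796, 5244 and 3904 against 9705, 8116 and 10609 normalized counts (-1.14) and Cldn10 had 41, 56 and 45 against 141, 127 and 161 normalized counts (-1.58). Of 19 oligodendrocyte genes, 5 were lower (median -0.77), with Neu4 at 9, 10 and 5 against 20, 18 and 20 normalized counts (-1.22), but the sums overlapped (46311, 84156 and 39926 against 95805, 57502 and 91971 normalized counts). Of 15 pericyte genes 4 were lower and 1 higher, and of 15 smooth muscle genes 3 were lower. Rgs5, a pericyte gene, had 32086, 29464 and 39499 against 53366, 55625 and 58866 normalized counts (log2 fold change -0.74 ± 0.16, adjusted p = 0.00239), Atp13a5 had 1908, 1186 and 2106 against 2530, 4186 and 2827 normalized counts (-0.88) and Casq2, a calcium store protein of muscle, had 714, 424 and 804 against 1317, 1481 and 1285 normalized counts (-1.12). The astrocyte gene Gfap had 1929, 4092 and 2369 against 3276, 1255 and 4292 normalized counts and was not called (log2 fold change 0.03 ± 0.55). Contralateral sham libraries had 489, 727 and 1637 normalized counts of Gfap. The pericyte genes Pdgfrb (0.10) and Kcnj8 (0.10) and the muscle genes Acta2 (-0.40) and Myh11 (-0.76) were not called. Neither were Rbfox3 (-0.67) of neurons, Mbp (-0.81) of oligodendrocytes and Tmem119 (-0.49) and P2ry12 (-0.55) of microglia. Mog of oligodendrocytes was called lower (-1.01, adjusted p = 0.0424), and its call in single settings is not given. Smooth muscle sums were 66485, 44072 and 102531 against 93330, 95916 and 98354 normalized counts, so that stroke replicate 3 lay above the sham libraries, and without it 8 genes of this list were lower, against 1 without sham 1, sham 2, stroke 1 or stroke 2. Of 18 fibroblast genes 6 were lower, led by Slc6a13 (903, 434 and 1253 against 1445, 2846 and 1886 normalized counts, -1.33). Of 15 microglia genes, Aif1 (117, 151 and 131 against 26, 80 and 80 normalized counts, 1.25) and Selplg were higher and Siglech (19, 17 and 34 against 44, 112 and 32 normalized counts, -1.25), Olfml3 and Sall1 lower. Among choroid plexus genes 0 of 15 were called in limma's fit, and the sums were 20431, 9062 and 22409 against 6331, 77313 and 42065 normalized counts. Among 13 erythrocyte and platelet genes, Itga2b (120, 191 and 102 against 34, 39 and 58 normalized counts, 1.62) and Pf4 were higher. The list of lower astrocyte genes was 7 without sham 3, that of lower oligodendrocyte genes 2 without sham 2 or sham 3 3 without stroke 1 or stroke 2 and 8 with centring, that of lower pericyte genes 1 without stroke 2 and 2 without sham 2 or sham 3 and that of lower fibroblast genes 3 without sham 2. Single calls were lost for Aqp4 (sham 1 or 3, stroke 1 or 3, the length correction), Slc1a2 (the length correction), Neu4 (sham 1, 2 or 3, stroke 3), Atp13a5 (stroke 2), Aif1 (sham 1), Selplg (sham 1 or 3, stroke 1), Siglech (sham 2, stroke 1 or 2), Olfml3 (sham 2, stroke 2), Sall1 (sham 2 or 3, stroke 1 or 2, the length correction) and Pf4 (sham 1, the length correction). Neuron and astrocyte genes fell beside the transporter and Wnt genes, and their part in the lower transporter and Wnt genes was not tested.

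**Figure D3:**
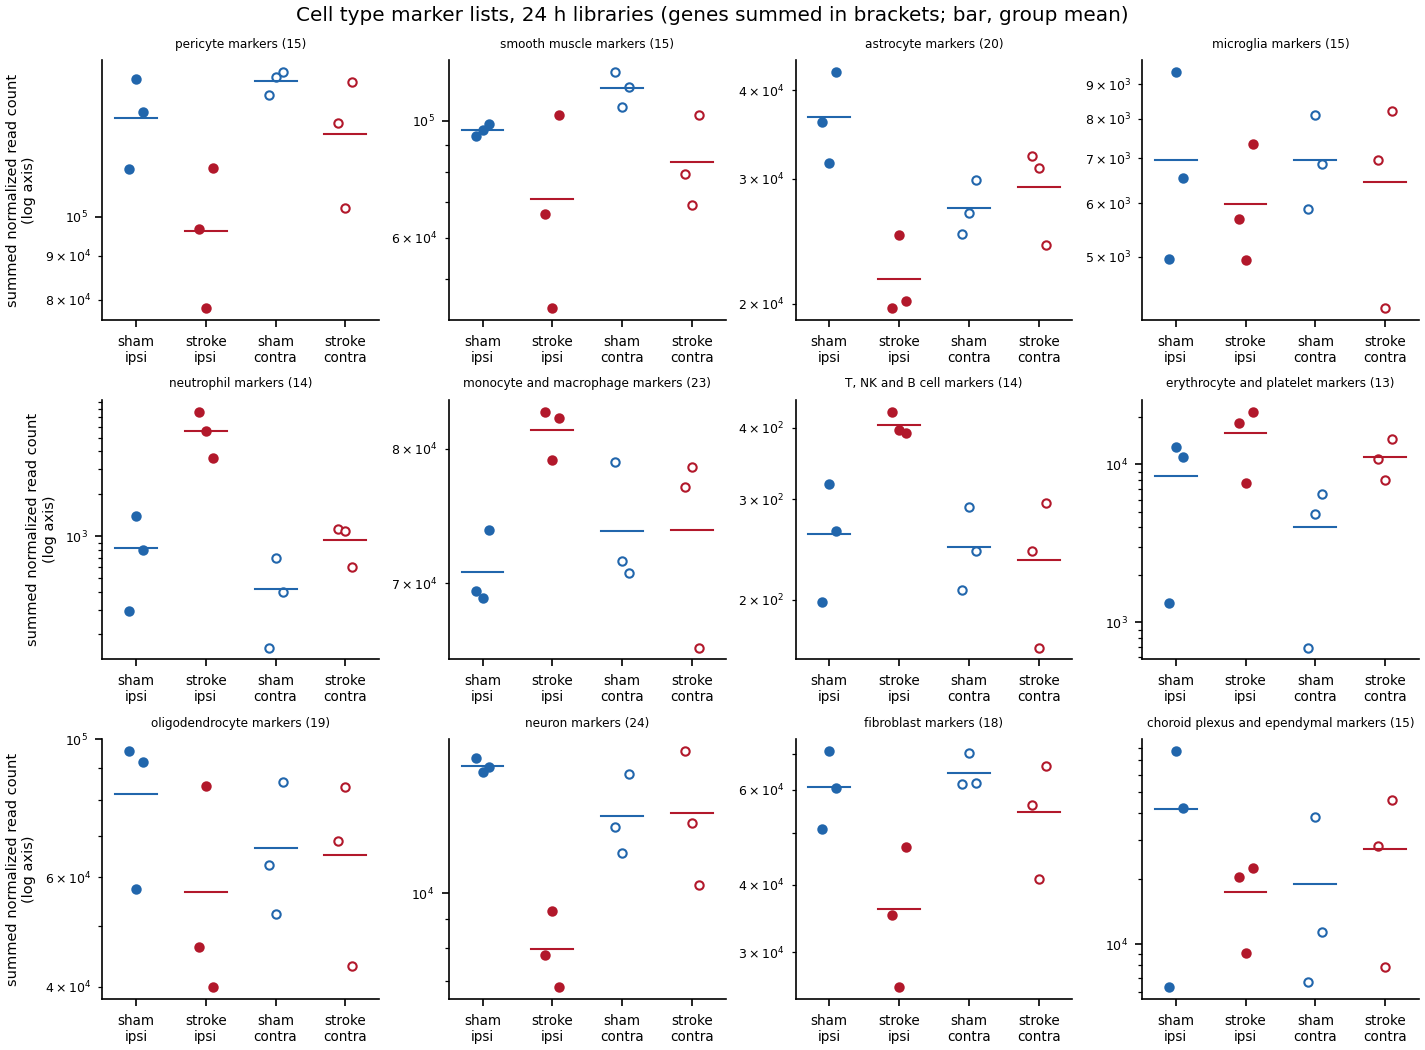
Summed normalized read counts of 12 cell type marker lists in the 24 h libraries on log axes, with filled points for ipsilateral and open points for contralateral libraries (red stroke, blue sham) and bars for group means. Neutrophil sums are 3577 to 7673 in the ipsilateral stroke libraries and at most 1386 in all others, and neuron sums are lowest in the ipsilateral stroke libraries.

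On the contralateral side, 0 of the 15982 genes were called between tMCAO and sham surgery at 24 h by limma, and 405 had an unadjusted p under 0.05. This comparison shares no library with the ipsilateral one, but the study took both hemispheres of the operated mice, so that the comparisons may share animals. The 1603 genes higher ipsilaterally had a median contralateral log2 fold change of 0.09 and the 1316 lower genes one of -0.07, with 0.01 over all genes. Il11 had 71, 60 and 43 against 7, 3 and 6 normalized counts contralaterally (log2 fold change 3.25, adjusted p = 0.352), and Apln had 416, 285 and 172 against 99, 79 and 91 normalized counts (1.60, not called). In both the contralateral groups did not overlap, at a small part of the ipsilateral levels. Neutrophil genes summed to 1115, 1079 and 603 against 161, 699 and 400 normalized counts contralaterally, with overlap of the groups and a median log2 fold change of 1.13. Erythrocyte and platelet genes had a median of 1.15 there and of 1.32 ipsilaterally. They summed to 10830, 7949 and 14574 against 691, 4842 and 6516 normalized counts contralaterally. Ipsilaterally their sums overlapped (18231, 7686 and 21648 against 1324, 12966 and 11086 normalized counts). Sham replicate 1 was the lowest sham library in each of these sums.

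The difference between the ipsilateral and the contralateral stroke effect was tested as an interaction in the same fit. It was positive for 741 called genes (4.64%) and negative for 200 (1.25%). Since the ipsilateral libraries enter both tests, the results are not independent of the comparison above. This fit did not pair the hemispheres, and the labels do not state whether same-numbered libraries are the same pools. With the pool number as a block more genes were called in both directions, and list counts under it are not given. Among the lists, the interaction passed upward in 30 of 35 proteasome genes, 27 of 41 ribosome biogenesis genes, 12 of 34 oxidative stress genes and 10 of 33 genes of the unfolded protein and integrated stress response, and in 5 of 7 leukocyte integrins. It passed in 3 of 27 chemokine ligands and in 1 of 14 neutrophil genes, the latter with 12 higher ipsilaterally and a contralateral median of 1.13. Downward it passed in 6 of 33 genes of the transporter list, 4 of 24 neuron genes, 3 of 48 Wnt genes and 1 of 20 astrocyte genes. Slc19a3 had 3028, 2430 and 3019 against 3069, 3227 and 3333 normalized counts on the contralateral side, and the difference between the effects was -1.40 ± 0.25 (adjusted p = 0.00218). For Trem1, contralateral values were 5, 1 and 0 against 2, 4 and 3 normalized counts and the difference was 6.14 ± 1.23 (adjusted p = 0.00486). For Mmp3 the difference of 4.60 ± 1.43 did not pass (adjusted p = 0.0540), with contralateral values of 74, 69 and 14 against 4, 6 and 3 normalized counts. Single libraries moved the interaction counts. They were 430 up and 69 down without ipsilateral sham 1, 484 and 87 without ipsilateral stroke 1 and 481 and 79 without contralateral sham 2, and the lower genes were 115 without ipsilateral stroke 2, 104 without contralateral sham 3 and 119 without contralateral stroke 1.

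**Figure D4:**
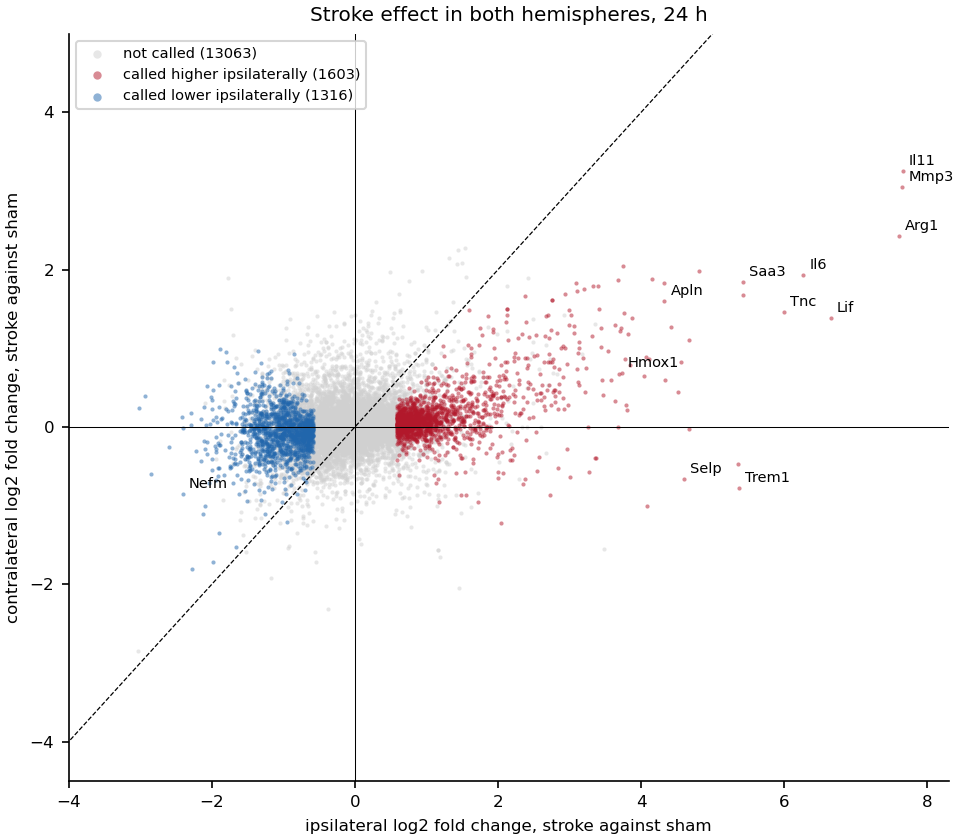
Log2 fold change of stroke against sham libraries at 24 h in the ipsilateral (horizontal axis) and contralateral hemisphere (vertical axis) for 15982 genes, with genes called ipsilaterally in red and blue and equality as a dashed line. Called genes spread along the horizontal axis, and Il11, Mmp3 and Arg1 lie farthest to the right with contralateral values of 3.25, 3.05 and 2.43.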

How the data were processed

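RNA of mouse brain microvessels was sequenced in 24 libraries of 8 groups (n = 3 per group). The authors aligned reads to mm10 with STAR, left out reads that matched several genes, counted the rest per gene and normalized them with DESeq2. The submitters' processing notes list STAR 2.5.2b, featureCounts 1.5.1 and DESeq2 1.6.2, and the methods of the study give other versions of STAR and DESeq2. As deposited, the values are a score, namely counts that the authors scaled with a DESeq2 size factor and gave as whole numbers, so that no count model was run. The deposited table held 17270 genes.

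Values were tested as log2(normalized count + 1) with limma 3.58.1 (R 4.3.3) with a mean-variance trend, for 15982 genes with a mean above 5 over the 24 libraries. All 8 groups shared 1 estimate of the spread. Every adjusted p in the text is from this fit with Benjamini-Hochberg adjustment over all tested genes, two-sided, and every error after ± is the standard error of limma (n = 3 per group). Named by rule were the genes the study discusses, the leading genes by log2 fold change (mean of at least 100, no overlap), the 5 largest gains and losses in counts, the 5 largest hemisphere differences and the extreme called members of each of 52 gene lists. Some genes that the rule named are not reported here. Of 1204 different symbols in the lists 1164 were in the table. The comparison and the lists were chosen with earlier results of these data known, so that lists are described by counts and medians and not tested. Alternatives were another pseudocount, filters, centring, voom weights, a fit of the compared libraries only, no trend, no limit on the change, replicate blocks and leaving out each library, and, chosen after the data were seen, a spline correction for transcript length and GC content (GENCODE M21, with values for 99.9% of the genes). The tests were tried on simulated data. Depth was 15950068 to 17240753 normalized counts per library, and a gene with few counts carries counting error beside the spread between libraries. Python 3.11.15 served for summaries.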

Additional observations from a re-analysis of the deposited data

Results flagged for a closer look

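The stroke effect differed between the ipsilateral and the contralateral hemisphere in 36 of the named genes, by limma's interaction test (adjusted p under 0.05 and a difference of more than 1.5 times). The values that follow are the ipsilateral minus the contralateral log2 fold change of stroke against sham libraries at 24 h, and they share the ipsilateral libraries with the results above. Among leukocyte and cytokine genes the difference was 6.14 for Trem1, 5.83 for Cxcl3, 5.27 for Lif, 5.17 for Arg1, 4.70 for Il1b and 4.41 for Il11. It was 3.59 for the acute-phase gene Saa3, 2.30 for the integrin chain Itgal, 2.17 for Itgam and 1.83 for Itgb2. The necroptosis gene Zbp1 had 1.81 and the peptide transporter Tap1 had 0.72. In matrix and cytoskeleton genes it was 4.54 for Tnc, 2.20 for Itga2, 1.42 for Itga5, 0.94 for Igfbp7 and 0.89 for Actb. Vascular genes with a positive difference were Apln with 2.72, Met with 2.37, Ednrb with 2.02, Gja5 with 1.62 and the efflux pump Abcc1 with 0.64. Stress genes had 3.26 for Gdf15, 3.04 for Hmox1, 1.65 for Polr1e, 1.11 for Psmd14 and 0.98 for Hspe1, and metabolic and cell cycle genes had 2.41 for Aurkb, 1.18 for Sqle and 1.15 for Gapdh. The difference was negative, with the ipsilateral effect the lower one, for Itgb8 (-1.50), Ppargc1a (-1.46), Slc19a3 (-1.40), Cxcl12 (-0.83), Tjp1 (-0.66) and Lrp6 (-0.65). In Itgb8 and Ppargc1a the contralateral log2 fold changes were 0.49 and 0.43, neither of them called. Their contralateral sham libraries (68, 88 and 78, and 42, 35 and 61 normalized counts) overlapped with the ipsilateral stroke libraries. Aurkb and Itga2 rest on few counts.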

How the results depend on the processing

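With the other pseudocount, centring, the replicate block, the length correction and each library left out, 0 of the 107 named genes changed direction past the threshold. Of the 103 called ones, 63 kept the call whichever of the 6 libraries was left out, and 15 lost it with the length and GC correction. Without a limit on the size of the change, 2783 genes were higher and 2102 lower ipsilaterally. Leaving out each library in turn gave 1236 to 1747 higher and 833 to 1403 lower genes, and for the difference between the hemispheres 430 to 857 positive and 69 to 272 negative calls. Fitted on the compared libraries only, that difference had 530 negative calls. Filters, pseudocount, trend and voom weights left the ipsilateral counts at 1410 to 1680 higher and 1214 to 1332 lower genes. Centring gave 1330 and 1707, and the length correction 1328 and 1068. Contralaterally 0 genes were called in every setting, with 405 at an unadjusted p under 0.05 in limma's fit. The numbers of stroke and sham libraries share no animals, and deviations of same-numbered libraries correlated at -0.25 to -0.11. With the replicate block, 1314 genes were higher and 973 lower, 71.8% of the calls were kept and 24 named genes lost the call. Same-numbered libraries of both hemispheres correlated at 0.066 to 0.41 and may be the same pools, which the labels do not state. Each of these 12 libraries correlated best with its own number, and 0 of the 6 did between stroke and sham. With the pool number as a replicate block, the difference between the hemispheres had 1235 positive and 755 negative calls, the 941 calls of the fit without it included. The cause of these shifts was not tested. Depth limits genes with few counts, such as Ly6g, Acan, Aurkb and Mki67, where single reads move the fold change.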

Other observations

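Contralateral stroke libraries held low levels of the leading ipsilateral genes. Il11 reached 2.25%, 1.83% and 2.18% of the ipsilateral level in stroke replicates 1, 2 and 3. For Tnc the shares were 1.91%, 2.25% and 2.62%, and for Mmp3 they were 3.91%, 3.46% and 1.05%. Saa3 had the higher shares of 6.76%, 6.26% and 4.01%. In Fosl1 and Csf3 the share differed between replicates, at 1.90%, 22.3% and 2.71% and at 1.57%, 14.1% and 0.228%. Contralateral stroke replicate 3 was not above all contralateral sham libraries in Fosl1 (7 against 11, 3 and 6 normalized counts) or Csf3 (1 against 2, 3 and 7). Il1b overlapped between the contralateral groups (12, 13 and 4 against 4, 18 and 9 normalized counts). The contralateral values of Mmp3 were 74, 69 and 14 against 4, 6 and 3 normalized counts, so that all stroke libraries lay above all sham libraries there too.

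Called genes differed by annotated class. Of 14287 protein-coding genes tested, 1479 were higher and 1235 lower. Of 359 lincRNA genes 12 were higher and 21 lower, and of 302 antisense genes 9 were higher and 30 lower. Of 378 processed pseudogenes 63 were higher and 0 lower, and these copies are near-identical to spliced transcripts of their parent genes, so that their reads are uncertain.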
